A study of Mus musculus with 8 samples.

Results

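The DEAD-box RNA helicases are here the 36 protein-coding mouse genes named Ddx plus a number and, for some, a letter. The counts of each library covered 54752 annotated genes, of which 26944 to 27366 were detected. Genes were chosen by name alone, so DEAD-box genes with other names, such as those of eIF4A, are not among them. The Y-linked copy *Ddx3y* was left out because only males carry it. A Ddx name also does not show that a protein belongs to the DEAD-box family, which was not checked. *Ddx11*, *Ddx58* and *Ddx60* were the least alike, with protein identity to their closest member of 7.93%, 22.2% and 22.7%. The libraries came from brains of wild type C57BL/6 mice (C57BL/6Slac in the study's methods) at E15.5, a stage of active neuron production. Control and stress each had 4 brains, 2 female and 2 male, and 1 library was made from each brain. In the stress group the pregnant dam had been exposed to chronic unpredictable mild stress, whereas control dams were not stressed. The study's sample sheet places all control brains used here in a single litter and all stress brains used here in another. Stress and litter therefore cannot be told apart, and P values measure only the spread between littermates. The study itself sequenced more brains, from more litters, than those used here. The comparison asked which of these helicases differed in the fetal brain after maternal stress.

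DEAD-box proteins use ATP to pry apart short RNA duplexes and to strip proteins from RNA, and they are named after a conserved run of amino acids in the ATP-binding core. Different members act at different stages of an RNA's life, including ribosome assembly in the nucleolus, splicing, export from the nucleus, translation and storage in cytoplasmic granules. *DDX3X* is known as a gene in which mutations cause intellectual disability.

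Of the 36 genes, 35 passed the filter on low counts, and 4 differed between stress and control at an adjusted P under 0.05: *Ddx3x*, *Ddx5*, *Ddx21* and *Ddx52*. All 4 were higher in stress and 0 were lower, where edgeR called 6.49% of all 17865 genes tested higher and 7.27% lower. For the lower direction, 0 members also had an unadjusted P under 0.05 with a lower value, and DESeq2 likewise called 0 lower. The 4 genes are 11.4% of the members tested. The stretches just upstream of the RefSeq start sites of these 4 genes are printed here as promoter DNA of the genes that changed. They are RefSeq sequences of build GRCm38.p6, read 5′ to 3′ on the gene's strand, and those of *Ddx3x* and *Ddx52* reach past the first base of the GENCODE gene, since the RefSeq start lies 52 and 28 bases from it. A match to CCAAT is in capitals (on the opposite strand it reads ATTGG).
Ddx3x, chrX:13280872-13281021, plus strand: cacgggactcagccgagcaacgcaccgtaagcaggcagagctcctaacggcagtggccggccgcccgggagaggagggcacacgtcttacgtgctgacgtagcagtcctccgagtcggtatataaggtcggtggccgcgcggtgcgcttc
Ddx5, chr11:106789186-106789335, minus strand: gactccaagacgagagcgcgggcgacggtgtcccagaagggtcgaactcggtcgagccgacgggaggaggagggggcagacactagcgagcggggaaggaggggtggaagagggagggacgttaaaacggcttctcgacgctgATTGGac
Ddx21, chr10:62602299-62602448, minus strand: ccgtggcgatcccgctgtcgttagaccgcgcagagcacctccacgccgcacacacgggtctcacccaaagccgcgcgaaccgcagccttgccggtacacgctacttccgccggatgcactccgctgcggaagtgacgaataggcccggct
Ddx52, chr11:83941940-83942089, plus strand: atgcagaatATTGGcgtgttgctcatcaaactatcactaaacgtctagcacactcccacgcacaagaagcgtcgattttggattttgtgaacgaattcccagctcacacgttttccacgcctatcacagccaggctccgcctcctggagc
The motif CCAAT, searched on both strands of 300-base windows around the start site, was present in 18 of 32 members with a RefSeq promoter, among them *Ddx5* and *Ddx52*, and in 37.4% of 32851 promoters. A match is a run of letters and does not show binding. For every motif, each member was counted at a single start, whereas the 32851 promoters include every listed start of a gene. The 2 shares are therefore from unlike sets. TTTGAA was present in 4 of 32 members, among them *Ddx3x*, where it lay outside the printed stretch, and in 17.9% of promoters. CACGTG was present in 2 members and 7.15% of promoters, and TTGGCGC in 5 and 2.45%.

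The 36 genes differed in level over several orders of magnitude. On the TPM scale, which corrects for exon length, control means ran from 1038 ± 16.8 (SD, n = 4) for *Ddx5* to 0.0478 ± 0.0131 for *Ddx60*. *Ddx5* was followed by *Ddx17* (485 ± 11.5), *Ddx39b* (412 ± 5.22), *Ddx3x* (321 ± 15.4), *Ddx6* (192 ± 8.01), *Ddx42* (141 ± 4.62) and *Ddx1* (116 ± 1.22). Each of these 7 exceeded 100 TPM, 24 others lay between 10 and 100, 3 between 1 and 10, and 2 at or below 1. Neighbours further down did not differ beyond their spread in several places, such as *Ddx46* at 78.6 ± 2.60 TPM and *Ddx21* at 78.3 ± 2.31 TPM. Together the family took 0.523 to 0.531% of counts in control and 0.550 to 0.561% in stress.

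**Figure D1:**
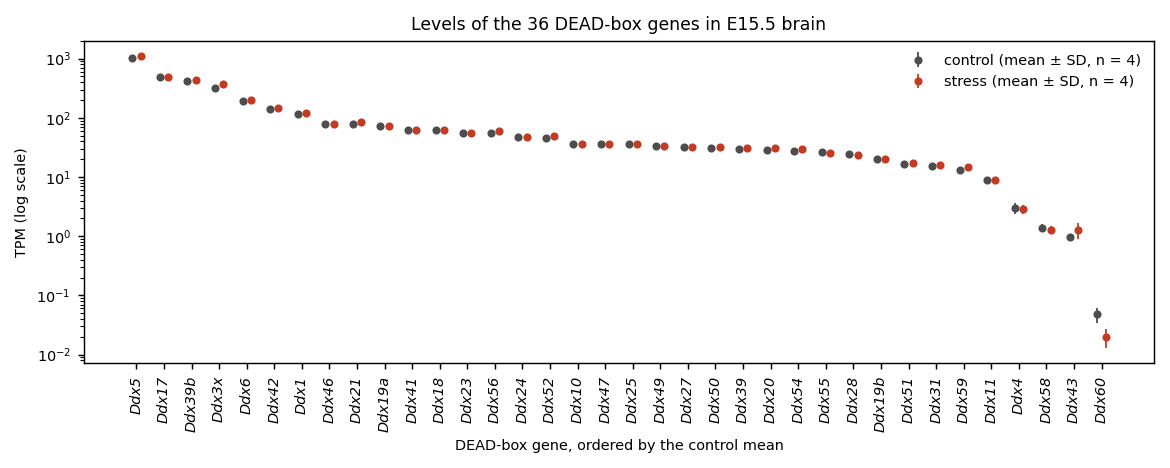
Level of each DEAD-box gene in TPM on a log axis, ordered by the control mean; points are means and bars SDs of 4 brains per group. Control levels fall from 1038 TPM for Ddx5 to under 1 TPM for Ddx43 and Ddx60, and the difference between groups is small beside the range between genes.

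Among members above 10 CPM (counts scaled to a common TMM-adjusted total), Log2FC ran from -0.05 to 0.23, so these differences were small. Of the 3 tested members under 10 CPM, *Ddx43* had the largest Log2FC of all members, at 0.37, but with an SE of 0.25 (adjusted P = 0.381). *Ddx4* and *Ddx58* were at -0.04 (SE 0.16) and -0.12 (SE 0.13). Positive Log2FC were seen in 27 of 35 members (77.1%) and in 50.6% of all genes. The median over members was 0.04, against 0.0015 over all genes. The groups did not overlap, with every stress brain higher, in 8 of 35 members (22.9%), where 8.2% of all genes did so. They were *Ddx3x*, *Ddx5*, *Ddx21*, *Ddx52*, *Ddx39b*, *Ddx42*, *Ddx50* and *Ddx54*. In 0 members was every stress brain lower, where 8.22% of all genes were. Among the 10459 genes above 10 CPM, 9.09% were called higher and 11.005% had every stress brain higher.

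**Figure D2:**
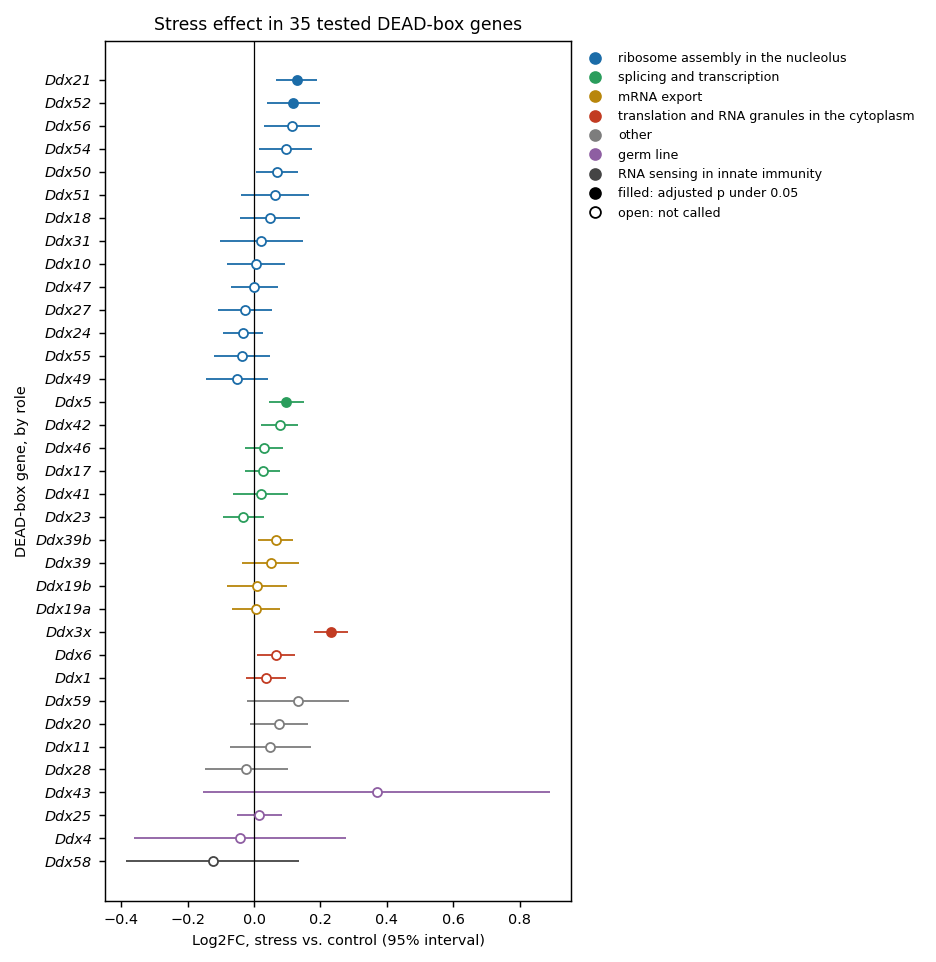
Log2FC of stress vs. control with its 95% interval for the 35 members tested, coloured by role; filled points have an adjusted P under 0.05. Ddx3x stands highest of the 4 filled points, at 0.23, and the intervals of Ddx43, Ddx4 and Ddx58, the 3 genes under 10 CPM, are the widest.

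Of 3 members with roles in translation and cytoplasmic RNA granules, *Ddx3x* was higher and *Ddx6* and *Ddx1* did not pass the test. Of all genes above 10 CPM, 9.09% were called higher. *Ddx3x* (ENSMUSG00000000787.12, chrX:13280970-13294052, plus strand, mm10) encodes a helicase of translation initiation. It had 449, 466, 416 and 424 CPM in control brains F36, F37, M30 and M31, and 540, 543, 488 and 490 CPM in stress brains F34, F35, M28 and M29. Every stress brain exceeded every control brain, and females exceeded males within each group. The means were 439 ± 23.1 and 515 ± 30.3 CPM, an increase of 17.4% (Log2FC = 0.23, SE 0.025, 95% interval 0.18 to 0.28, adjusted P = 2.06e-06). The Log2FC was 0.24 (SE 0.04) in females alone and 0.22 (SE 0.03) in males alone. Leaving out each brain in turn gave 0.22 to 0.24, and the call held in 8 of 8 fits. *Ddx6*, a helicase of P-bodies and mRNA repression, had 384 to 416 CPM in control and 409 to 423 in stress, so the groups overlapped (Log2FC = 0.07, adjusted P = 0.116). *Ddx1*, which takes part in the tRNA ligase complex, had a Log2FC of 0.04 (adjusted P = 0.486).

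*Ddx3x* was also the member that differed between the sexes. The male vs. female Log2FC was -0.14 (SE 0.03, adjusted P = 0.0182), and the female mean was 1.10 times the male one. This was 1 of 35 members called, where 0.0896% of all genes were, and the 16 genes called included 9 on the X chromosome and 5 on the Y. The call was lost on leaving out control F37, control M30, stress F35, stress M28 or stress M29 (largest adjusted P = 0.184), while the Log2FC stayed between -0.15 and -0.13 over the 8 fits. *Ddx3x* has a Y-linked counterpart, *Ddx3y*, and their encoded proteins matched at 91.0% of the shorter protein's residues. *Ddx3y* had 0 counts in every female, 1503 and 1606 counts in control males M30 and M31, and 1617 and 1604 in stress males M28 and M29. Its Log2FC between stress and control males was 0.01 (SE 0.05, 95% interval -0.09 to 0.11). The sum of both genes was 327 and 340 TPM in control females, 346 and 356 in control males, 400 and 400 in stress females, and 398 and 393 in stress males. On that sum the control males lay above the control females, while the stress males lay below the stress females. No member was called for a stress effect that differed between the sexes (edgeR interaction test, 0 of 35 at an adjusted P under 0.05, 1 at an unadjusted P under 0.05, DESeq2 0, all genes 0.0056%). That 1 was *Ddx18*, with Log2FC of -0.06 (SE 0.06) in females and 0.15 (SE 0.06) in males (interaction test, unadjusted P = 0.00887, adjusted P = 0.596). With 2 brains per sex and group, a difference between the sexes could be missed.

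**Figure D3:**
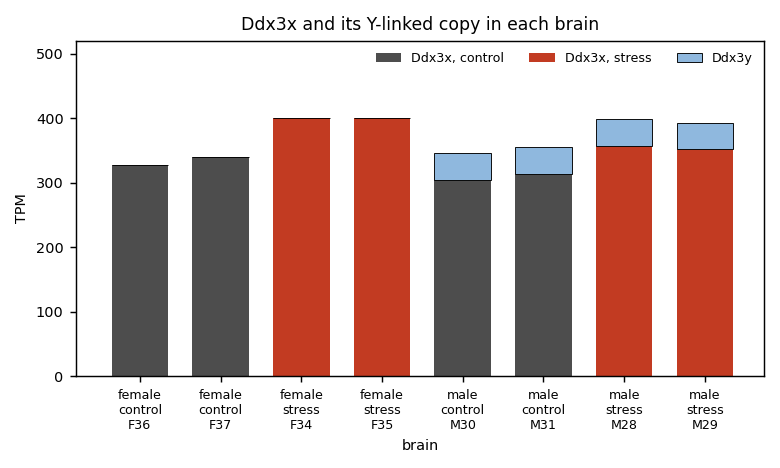
TPM of Ddx3x (grey in control, red in stress) with Ddx3y (blue) stacked on it in each brain. Stress bars are higher than control bars in both sexes, and Ddx3y appears in males, with about the same height in all 4.

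Of 6 members with roles in splicing and transcription, *Ddx5* was higher, where 9.09% of all genes above 10 CPM were. *Ddx5* (ENSMUSG00000020719.14, chr11:106780355-106789185, minus strand, mm10) encodes a helicase that works in splicing and as a transcription co-regulator. It had 1531, 1546, 1566 and 1561 CPM in control brains F36, F37, M30 and M31, and 1622, 1691, 1615 and 1708 CPM in stress brains F34, F35, M28 and M29. All stress brains were higher, with F35 and M29 above F34 and M28 (Log2FC = 0.10, SE 0.03, 95% interval 0.04 to 0.15, adjusted P = 0.0117). Leaving out stress M29 ended the call (adjusted P = 0.0619), and 7 of 8 such fits kept it. Its closest relative by protein, *Ddx17*, at 70.7% identity, had 943 to 980 CPM in control and 957 to 1003 in stress (Log2FC = 0.03, 95% interval -0.03 to 0.08, adjusted P = 0.563). The groups overlapped for *Ddx17*, and the difference between the 2 Log2FC was not tested. *Ddx42* had 149 to 159 CPM in control and 160 to 167 in stress, with no overlap (Log2FC = 0.08, adjusted P = 0.0608). *Ddx46*, *Ddx41* and *Ddx23*, which act in the spliceosome, had Log2FC of 0.03, 0.02 and -0.03. Of the 100-base windows of *Ddx5*, 7.94% also occur in *Gm12183*, and of those of *Ddx18*, 38.1% occur in other genes, so counts of these 2 members are less certain.

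Of 14 members with roles in ribosome assembly, 2 were higher, *Ddx21* and *Ddx52*, and 10 had a positive Log2FC. Of all genes above 10 CPM, 9.09% were called higher and 50.7% had a positive Log2FC. *Ddx21* (ENSMUSG00000020075.8, chr10:62580251-62602281, minus strand, mm10) encodes a nucleolar helicase that acts on ribosomal RNA. It had 102, 105, 105 and 108 CPM in control brains F36, F37, M30 and M31, and 109, 116, 116 and 117 CPM in stress brains F34, F35, M28 and M29. Stress F34 lay close to the highest control brain, M31, and the other 3 stress brains lay apart (Log2FC = 0.13, SE 0.03, 95% interval 0.07 to 0.19, adjusted P = 0.00476, called in 8 of 8 fits that left out a brain). *Ddx50*, its closest relative at 59.4% identity, lies 13613 bases from it on chromosome 10 on the same strand. It had 81.6, 78.8, 82.7 and 79.7 CPM in control and 84.3, 84.8, 83.0 and 86.6 CPM in stress, with no overlap (Log2FC = 0.07, SE 0.03, adjusted P = 0.142).

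*Ddx52* (ENSMUSG00000020677.7, chr11:83942062-83963088, plus strand, mm10) encodes a helicase of small-subunit ribosome assembly. It had 37.8, 39.98, 41.5 and 40.6 CPM in control brains F36, F37, M30 and M31, and 42.5, 41.9, 45.9 and 43.3 CPM in stress brains F34, F35, M28 and M29. The lowest stress brain, F35, was just above the highest control brain, M30 (Log2FC = 0.12, SE 0.04, 95% interval 0.04 to 0.20, adjusted P = 0.0414). The call held in 1 of 8 fits that left out a brain, the one without stress M29, and the largest adjusted P among them was 0.143. *Ddx27*, the member closest to it at 30.3% identity, had a Log2FC of -0.03 (SE 0.04, adjusted P = 0.721). *Ddx56* (Log2FC = 0.11, adjusted P = 0.0658) and *Ddx54* (Log2FC = 0.10, adjusted P = 0.103) did not pass the test. Reads of *Ddx54* are uncertain in part, since some of its exons overlap another gene. Lowest of the group was *Ddx49*, at -0.05 (adjusted P = 0.529), with 29.9% of its exon length shared.

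**Figure D4:**
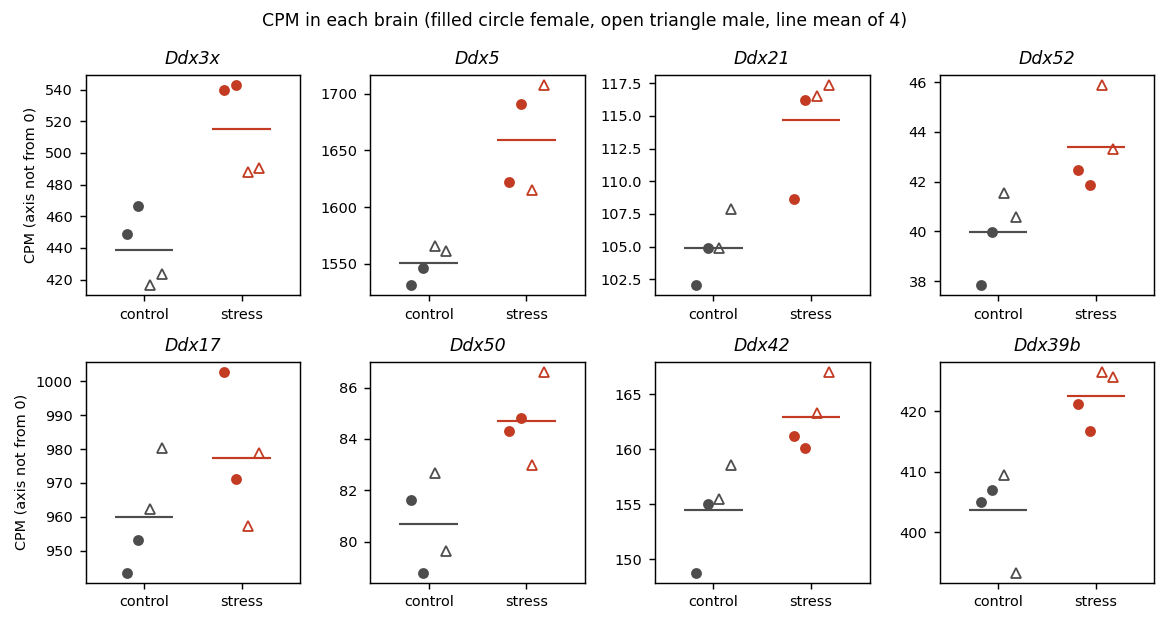
CPM in each brain for the 4 members called (top row) and for Ddx17, Ddx50, Ddx42 and Ddx39b (bottom row); filled circles are females, open triangles males, and lines are means of 4. The axes do not start at 0. The groups are apart in every panel except Ddx17.

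Of the 4 members with roles in mRNA export, 0 were called by edgeR, 1 had an unadjusted P under 0.05, and DESeq2 called 0. *Ddx39b*, which loads export factors onto mRNA, had 405, 407, 409 and 393 CPM in control and 421, 417, 427 and 426 CPM in stress, with no overlap (Log2FC = 0.07, SE 0.03, adjusted P = 0.0885). *Ddx39*, *Ddx19a* and *Ddx19b* had Log2FC of 0.05, 0.0049 and 0.0091. *Ddx19a* and *Ddx19b* lie 5387 bases apart on chromosome 8 and share sequence, in 23.2% and 8.57% of their 100-base windows, so their reads may be split between them.

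Among the others, *Ddx20*, a member of the SMN complex, had a Log2FC of 0.07 (adjusted P = 0.267), and *Ddx59*, *Ddx11* and *Ddx28* had 0.13, 0.05 and -0.02. For *Ddx59* the groups overlapped and the test was not passed (SE 0.07, 95% interval -0.02 to 0.29, adjusted P = 0.267). The germ-line genes *Ddx4* and *Ddx43* were near the floor, at 2.99 and 0.970 TPM in control, whereas *Ddx25* had 35.5 TPM. *Ddx58*, which encodes the RNA sensor RIG-I, had 1.39 TPM in control and a Log2FC of -0.12 (95% interval -0.39 to 0.14), and *Ddx60* had 0.0345 to 0.141 CPM and was not tested.

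Summed over members, the family had 5237 to 5309 CPM in control and 5494 to 5614 CPM in stress, a difference of means of 280 CPM or 5.29% that was not tested as a sum. *Ddx5* made up 38.7% of this difference and *Ddx3x* 27.3%. Without the 4 called genes the sums were 3117 to 3177 CPM in control and 3221 to 3246 CPM in stress.

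Partner genes in the same pathways were counted from lists that hold none of the 36 members, although they include the eIF4A genes, which also encode DEAD-box proteins. For comparison, edgeR called 6.49% of all genes tested higher and 7.27% lower, and 9.09% of genes above 10 CPM higher, with a median Log2FC of 0.0015 over all genes. Of 47 ribosome assembly partners tested, 6 were higher and 2 lower, with *Dkc1* at a Log2FC of 0.18 and *Nop10* at -0.13. Of 36 core spliceosome genes, 7 were higher and 0 lower, with 10 at an unadjusted P under 0.05 and 7 called by DESeq2. The median Log2FC was 0.04 over the ribosome assembly list, 0.03 over the spliceosome list, 0.03 over the translation initiation list and 0.04 over the P-body list. Of 27 translation initiation partners of *Ddx3x*, 3 were higher (*Eif5b*, *Eif4b* and *Eif2s3x*), and of 26 P-body partners of *Ddx6*, 3 were higher (*Cnot6*, *Cnot9* and *Lsm14a*). Of 19 eIF4A and DEAH-box relatives, 1 was higher, *Dhx36*. Of 5 tRNA ligase partners of *Ddx1*, 2 were higher, *Zbtb8os* and *Fam98b*. In the export, exon junction, SMN and RIG-I lists, 0 of 17, 0 of 10, 0 of 7 and 0 of 12 were called by edgeR, with 3, 2, 0 and 1 at an unadjusted P under 0.05 and 0 called by DESeq2 in each.

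The brains also differed in markers of cell type, where edgeR called 6.49% of all genes tested higher and 7.27% lower. Of 10 dividing cell markers, 9 were higher in stress, with a summed level of 613 to 662 CPM in control and 694 to 793 CPM in stress. Of 5 intermediate progenitor markers, 4 were higher (311 to 337 and 344 to 384 CPM), and of 9 radial glia markers, 4 were higher (2025 to 2117 and 2029 to 2163 CPM). The other 5 radial glia markers, *Hes1*, *Hes5*, *Fabp7*, *Slc1a3* and *Ptprz1*, had Log2FC of -0.08, -0.10, -0.02, -0.04 and -0.07 and did not pass the test, and the median over the list was -0.02. Of 10 neuronal markers, 5 were lower (7946 to 8176 and 7759 to 8088 CPM). The other 5, *Tubb3*, *Map2*, *Elavl3*, *Dcx* and *Elavl4*, had Log2FC of -0.02, -0.04, -0.03, 0.06 and 0.03 and did not pass the test. Lower markers also included 3 of 5 of endothelium and 2 of 4 of the oligodendrocyte lineage, and 3 of 4 mesenchymal markers were higher (12.4 to 25.7 and 17.0 to 60.0 CPM). Of 5 choroid plexus markers, 1 was higher, *Ttr*, at 2.65 ± 2.93 CPM in control and 10.6 ± 13.2 CPM in stress, and DESeq2 called 0. Of the 6 microglial markers 0 were called by edgeR (0 at an unadjusted P under 0.05, DESeq2 0), and of 6 erythroid markers 2 were higher. Their part in the helicase results was not tested. In bulk tissue, fewer cells of a type and less RNA per cell cannot be told apart.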

How the data were processed

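Polyadenylated RNA from 8 fetal brains was sequenced, and the deposited files hold raw gene counts for each library, 25320109 to 29105710 in total. Per the study's methods and processing notes, the authors trimmed reads with Trim Galore, aligned them to mm10 with TopHat2 2.1.1 and counted exons of GENCODE genes with featureCounts 1.6.3. The study's methods give limits on multiple hits for the aligner and paired-end counting by gene for featureCounts, and name no counting option for strand, multi-mapped reads or overlapping genes. Symbols came from a later GENCODE release, which matched 54723 of 54752 identifiers. Here counts were normalised by TMM, filtered by edgeR's filterByExpr (minimum count 10) and tested with the edgeR 4.0.16 quasi-likelihood test (R 4.3.3) with condition and sex as terms, with Benjamini-Hochberg adjustment over all 17865 genes. Intervals are 95%. DESeq2 1.42.0, median-of-ratios and upper-quartile factors in edgeR, no filter, no sex term and leaving out each brain were alternatives. Protein identity was the share of the shorter protein's residues that matched in an alignment of translated GENCODE transcripts. Values in every brain were given for called members and those whose groups did not overlap, with the closest relative of each called member. The members and lists were chosen with earlier results of these data known.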

Additional observations from a re-analysis of the deposited data

Results flagged for a closer look

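In 4 of 70 groups of 4 brains, 1 brain lay far from the other 3, and chance gives about 1 in 20 such groups. Stress F34 was low for *Ddx21*, at 108.7 CPM, and for *Ddx47*, at 59.03 CPM, and high for *Ddx49*, at 26.15 CPM. Stress M29 was low for *Ddx55*, at 34.27 CPM.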

How the results depend on the processing

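The number of members called higher was 3 to 4 under every alternative, and 0 were lower. *Ddx52* was lost with DESeq2 (adjusted P = 0.114), with no filter (0.0934) and with no sex term (0.0877). It was kept by edgeR with median-of-ratios factors (adjusted P = 0.0425) and upper-quartile factors (0.0417). *Ddx5* was lost only without stress M29 (edgeR adjusted P = 0.0619). Leaving out each brain in turn gave 0 to 1 members that differed by sex. *Ddx42* passed with no sex term, *Ddx56* without stress F35 and *Ddx6* without control M31. No member changed direction past the test. No paired analysis was possible because the brains' numbers are not shared between groups. With DESeq2, 0 of the 4 mesenchymal markers were called in place of 3, and 1 of 26 P-body partners in place of 3; the cause was not tested. Depth limited *Ddx43*, *Ddx4*, *Ddx58* and *Ddx60*.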
